A study of Rattus norvegicus with 32 samples.

Results

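Csf1, Csf1r, Csf2rb and Tyrobp were followed in the hippocampus of R237H and WT rats. The 4 genes were chosen by name from 23822 genes measured, with earlier results of these data known, so their number increased is a description. They are the ligand, the receptor, a related cytokine receptor chain and a microglial adaptor. The R237H rats carry 1 allele of Gfap with a missense mutation at its own locus (Gfap+/R237H), a model of Alexander disease, and the WT rats were Gfap+/+ littermates. Both were of the Crl:CD(SD) background. Each of 32 rats gave 1 polyA-selected, stranded RNA-seq library of the dissected hippocampus. Females at P21 numbered 5 R237H and 3 WT rats, and the other 3 combinations of sex and age had 4 rats of each genotype. The question was whether this signaling axis changed with the mutation at P21, when the rats are not yet visibly ill, and at P56, when they are severely affected.

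CSF1 is a secreted growth factor that keeps microglia and other macrophages alive and drives their division through the receptor tyrosine kinase CSF1R. CSF2RB is the common beta chain that the receptors for GM-CSF, IL-3 and IL-5 share, and it signals through JAK2 and STAT5. TYROBP, also called DAP12, is a membrane adaptor of myeloid cells that carries the signals of receptors such as TREM2 to the kinase SYK. In the brain, Csf1r and Tyrobp are expressed mainly by microglia, whereas Csf1 is also made by neurons and astrocytes.

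Library depth, as the sum of expected counts, was 21580397 to 55544871 (median 46157271), and 2 libraries, those of the R237H males s70-B (P56) and R1781H (P21), had fewer than 30000000. Gfap, the mutated gene, had log2 fold changes between 2.53 and 2.89 in the 4 comparisons and did not overlap between genotypes. Summed choroid plexus markers, all 5 of which were matched, exceeded 100 TPM in 6 rats of both genotypes (127 to 6164 TPM), and ranged from 3.40 to 40.2 TPM in the others. These were WT s66-B, R237H s70-B and R237H s70-C at P56, and WT R1781C, WT R1797C and R237H R1789B at P21. Without these 6 rats, or without the shallow libraries, all 4 genes remained increased in each comparison. Sample titles differ in form between the ages. No label names a batch, and any batch that goes with age cannot be told apart from it. Levels are given in TPM, which can be compared between genes, and fold changes come from the counts. On the TPM scale the median of all genes was 0.40 (log2) higher in R237H males and 0.26 higher in R237H females at P56, against -0.01 and -0.03 in the counts, so differences in TPM at P56 are larger than the fold changes.

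All 4 genes were increased in R237H rats of both sexes at both ages, by edgeR's quasi-likelihood test at FDR < 0.01. Increases were common among all genes tested: 16.8% of them were increased in P56 males, 17% in P56 females, 12.4% in P21 males and 7.06% in P21 females. Csf2rb rose the most, by 10.2-fold to 30.7-fold, and the other 3 genes rose by 2.78-fold to 5.79-fold. Bulk RNA cannot tell an increase in the number of expressing cells from more RNA per cell. Absence of overlap between genotypes is given as a description, as its share over all genes was not counted.

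**Figure D1:**
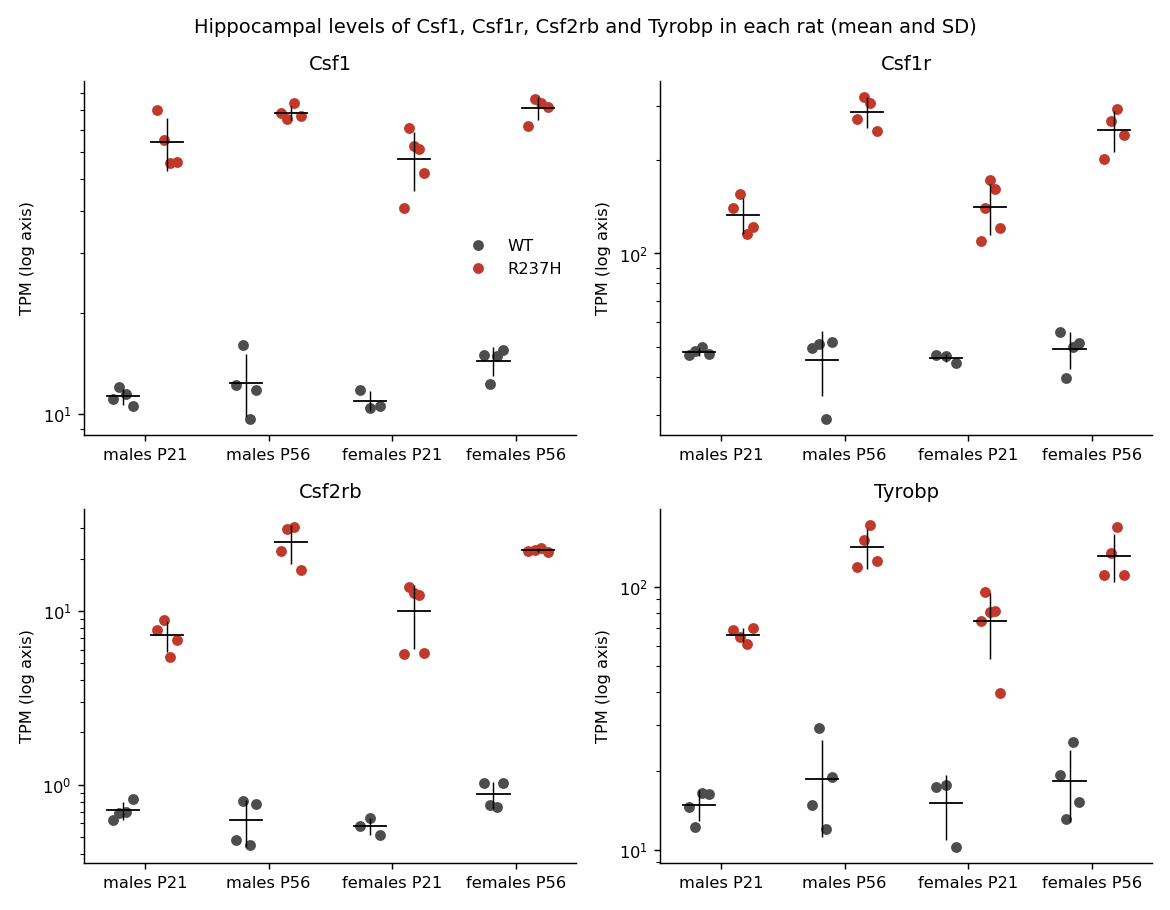
Level of each gene in every rat, in TPM on a log axis, for males and females at P21 and P56; points are rats (WT grey, R237H red), horizontal lines are group means and vertical lines the SD. The R237H and WT rats do not overlap for any of the 4 genes at either age, and the means of R237H rats for all 4 genes are higher at P56 than at P21 in each sex. The share of all genes without overlap was not counted.

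Csf1, the ligand, had log2 fold changes between 2.14 and 2.45 in the 4 comparisons. In males at P56, Csf1 was at 78.5, 75.5, 83.8 and 76.7 TPM in R237H rats and at 12.2, 15.98, 9.65 and 11.8 TPM in WT rats. In females at P56, it was at 71.9, 86.6, 84.0 and 81.6 TPM in R237H rats and at 15.01, 12.3, 14.9 and 15.5 TPM in WT rats. The lowest R237H rat was thus several times above the highest WT rat in both sexes. In males at P21, R237H rats had 80.1, 65.3, 55.6 and 56.04 TPM of Csf1 and WT rats had 11.1, 12.02, 11.4 and 10.6 TPM. In females at P21, R237H rats had 40.9, 70.7, 62.4, 61.2 and 51.9 TPM and WT rats had 11.8, 10.4 and 10.6 TPM. The genotypes were again apart, and R237H rats spread more at P21 than at P56, with R1789A the lowest. In males, the log2 fold change was 2.29 ± 0.11 (SE, FDR = 7.80e-07) at P56 and 2.45 ± 0.12 (SE, FDR = 3.60e-08) at P21. In females, it was 2.14 ± 0.11 (SE, FDR = 3.79e-07) at P56 and 2.42 ± 0.19 (SE, FDR = 2.34e-05) at P21. Ordered by mean TPM, R237H females and males at P56 (81.0 ± 6.43 and 78.6 ± 3.69, SD, n = 4 each) came before R237H males (64.3 ± 11.5, SD, n = 4) and females (57.4 ± 11.4, SD, n = 5) at P21. The WT groups followed at 14.4 ± 1.44 in females at P56, 12.4 ± 2.63 in males at P56, 11.3 ± 0.61 in males at P21 (SD, n = 4 each) and 10.9 ± 0.74 (SD, n = 3) in females at P21. Neighbours in this order overlapped, except R237H females at P21 and WT females at P56.

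Csf1r, the receptor for CSF1, was the most abundant of the 4 transcripts in every group. In males at P56, Csf1r was at 273, 320, 307 and 248 TPM in R237H rats and at 49.6, 50.9, 29.2 and 51.7 TPM in WT rats. In females at P56, it was at 203, 269, 292 and 242 TPM in R237H rats and at 55.6, 39.7, 49.7 and 51.6 TPM in WT rats. One WT male, s69-A, stood well below its group on the TPM scale, but in CPM, from the counts, the 4 rats had 107, 104, 92.2 and 133.8, with s69-A near the others. No WT rat reached the R237H range. In males at P21, R237H rats had 140, 156, 116 and 122 TPM of Csf1r and WT rats had 46.9, 48.3, 49.8 and 47.2 TPM. In females at P21, R237H rats had 110, 140, 173, 162 and 121 TPM and WT rats had 46.9, 46.5 and 44.4 TPM. Mean WT levels were between 45.3 and 49.1 TPM at both ages, whereas every R237H rat at P56 was above every R237H rat at P21. In males, the log2 fold change was 2.30 ± 0.14 (SE, FDR = 1.99e-06) at P56 and 1.48 ± 0.08 (SE, FDR = 8.15e-08) at P21. In females, it was 2.05 ± 0.11 (SE, FDR = 5.85e-07) at P56 and 1.69 ± 0.16 (SE, FDR = 6.31e-05) at P21. By mean TPM the order was R237H males and females at P56 (287 ± 32.7 and 251.3 ± 38.4, SD, n = 4 each), then R237H females (141 ± 26.6, SD, n = 5) and males (133 ± 18.02, SD, n = 4) at P21. The 4 WT groups followed. Ranges of neighbours did not overlap between R237H females at P56 and at P21, between R237H males at P21 and WT females at P56, or between WT males and WT females at P21.

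The promoter of Csf1r is shown because it was the only one of the 4 members matched in the RefSeq promoter table. It spans 250 bases before to 50 bases after the start listed there, at chr18:56834129-56834428 on the plus strand of GRCr8. This build need not be the one the counts were made on. The 50 bases after the listed start begin with ATG, so that start may be the start of translation. Where transcription starts relative to this window was not tested. Capitals mark the core of the site bound by PU.1, the transcription factor encoded by Spi1 that is required for macrophage development, here read on the minus strand (GAGGAA, or TTCCTC on the plus strand).
Csf1r: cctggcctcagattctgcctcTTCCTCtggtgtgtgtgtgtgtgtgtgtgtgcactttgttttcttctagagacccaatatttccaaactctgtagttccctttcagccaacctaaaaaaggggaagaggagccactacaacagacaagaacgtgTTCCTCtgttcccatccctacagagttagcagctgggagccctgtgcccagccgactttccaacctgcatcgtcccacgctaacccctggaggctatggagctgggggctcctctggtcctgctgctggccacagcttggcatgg
The core occurs 2 times in this window, and at least 1 time on either strand in 27.6% of 33469 rat promoters of the same length. The share of promoters with 2 or more was not counted. Searches on both strands for TGANTCA (AP-1), TTCNNNGAA (STAT) and a shortened NF-kappaB pattern with fixed bases only at both ends gave no match here, and these were held by 7.33%, 8.87% and 19.3% of promoters. Spi1 itself was increased in all 4 comparisons, by 2.32 (log2) in males and 2.42 in females at P56 (FDR = 1.51e-04 and 9.30e-05) and by 1.97 and 2.09 at P21 (FDR = 5.78e-06 and 0.00328).

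Csf2rb, the common beta chain, was close to 0 in WT rats and showed the largest increase of the 4 genes. In males at P56, Csf2rb was at 22.2, 29.8, 30.6 and 17.3 TPM in R237H rats and at 0.48, 0.81, 0.45 and 0.77 TPM in WT rats, which had 39 to 67 counts. In females at P56, it was at 22.1, 22.4, 23.2 and 22.0 TPM in R237H rats and at 1.02, 0.76, 0.74 and 1.02 TPM in WT rats. R237H females at P56 were close to each other in TPM, but in CPM they had 40.2, 32.4, 33.6 and 31.3, s64-A being the highest. Among R237H males s70-B was the lowest. In males at P21, R237H rats had 7.82, 8.92, 5.43 and 6.85 TPM of Csf2rb and WT rats had 0.63, 0.69, 0.70 and 0.83 TPM. In females at P21, R237H rats had 5.62, 13.8, 12.7, 12.4 and 5.7 TPM and WT rats had 0.58, 0.64 and 0.51 TPM. Females at P21 split into 3 rats above 12 TPM and 2 rats below 6 TPM, all of them well above WT. In males, the log2 fold change was 4.94 ± 0.26 (SE, FDR = 1.13e-06) at P56 and 3.36 ± 0.16 (SE, FDR = 3.60e-08) at P21. In females, it was 4.38 ± 0.15 (SE, FDR = 1.27e-07) at P56 and 4.22 ± 0.42 (SE, FDR = 9.42e-05) at P21. At most 0.70% of the genes tested had a larger fold change in any of the 4 comparisons. R237H males and females at P56 led the order of means (25.0 ± 6.39 and 22.4 ± 0.54 TPM, SD, n = 4 each), followed by R237H females (10.04 ± 4.04, SD, n = 5) and males (7.26 ± 1.48, SD, n = 4) at P21 and the WT groups (0.58 to 0.89). Neighbours were apart between R237H females at P56 and at P21 and between R237H males at P21 and WT females at P56, and overlapped elsewhere.

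Tyrobp, the adaptor, was the second most abundant of the 4. In males at P56, Tyrobp was at 119, 151, 173 and 126 TPM in R237H rats and at 14.8, 29.2, 12 and 18.9 TPM in WT rats. In females at P56, it was at 112, 135, 169 and 111 TPM in R237H rats and at 19.3, 13.1, 25.8 and 15.3 TPM in WT rats. The highest R237H rat of each sex was from title number 69 (s69-B and s69-C), and the genotypes did not overlap. In males at P21, R237H rats had 68.6, 64.7, 60.7 and 70.1 TPM of Tyrobp and WT rats had 14.6, 12.2, 16.5 and 16.4 TPM. In females at P21, R237H rats had 74.5, 95.8, 80.2, 81.3 and 39.7 TPM and WT rats had 17.4, 17.7 and 10.3 TPM. R1797D was the lowest R237H rat and still above all WT rats. In males, the log2 fold change was 2.50 ± 0.23 (SE, FDR = 2.14e-05) at P56 and 2.18 ± 0.11 (SE, FDR = 3.69e-08) at P21. In females, it was 2.53 ± 0.24 (SE, FDR = 2.03e-05) at P56 and 2.38 ± 0.32 (SE, FDR = 5.65e-04) at P21. Mean levels were ordered as R237H males and females at P56 (142 ± 24.6 and 132 ± 27.3 TPM, SD, n = 4 each), R237H females (74.3 ± 20.9, SD, n = 5) and males (66.04 ± 4.201, SD, n = 4) at P21, and WT groups (14.9 to 18.7). Ranges in TPM were apart between R237H females at P56 and at P21 and between R237H males at P21 and WT males at P56. In CPM the R237H females of the 2 ages overlapped, with 15.5 in s70-C at P56 and 20.2 in R1789B at P21.

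The increase of Csf1r and of Csf2rb in R237H males was larger at P56 than at P21, and that of Csf1 and Tyrobp was not shown to differ. In an age by genotype model of the 16 males, the log2 fold change of Csf2rb was larger at P56 by 1.57 ± 0.31 (SE, FDR = 0.00218) and that of Csf1r by 0.80 ± 0.16 (SE, FDR = 0.00293), by edgeR's quasi-likelihood test. The differences were 0.31 ± 0.25 (SE, FDR = 0.403) for Tyrobp and -0.18 ± 0.16 (SE, FDR = 0.446) for Csf1, whose sign turned on the TPM scale. Of all genes tested, 10.1% passed in this model, so that 2 of 4 members stood against a high background. In the 16 females, 0 of the 4 genes passed at FDR < 0.01, against 2.15% of all genes. In females Csf1r had the largest difference (0.37 ± 0.18, SE, FDR = 0.245), followed by Csf1 (-0.28 ± 0.21), Csf2rb (0.17 ± 0.43) and Tyrobp (0.16 ± 0.40). At an unadjusted p under 0.05 the count in females was 0 as well, and the likelihood-ratio test and DESeq2 also called 0. Whether males and females differ in this change with age was not tested.

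Males and females were not shown to differ at either age. In sex by genotype models of the 16 rats of an age, 0 of 4 genes passed at FDR < 0.01 at P56 or P21, 0 had an unadjusted p under 0.05, and the likelihood-ratio test and DESeq2 called 0. Among all genes 0.00% passed at either age. The largest difference was that of Csf2rb at P21, whose log2 fold change was lower in males by 0.86 ± 0.44 (SE, FDR = 1 by edgeR), followed by Csf2rb at P56, where it was higher in males by 0.52 ± 0.29 (SE, FDR = 0.999 by edgeR).

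**Figure D2:**
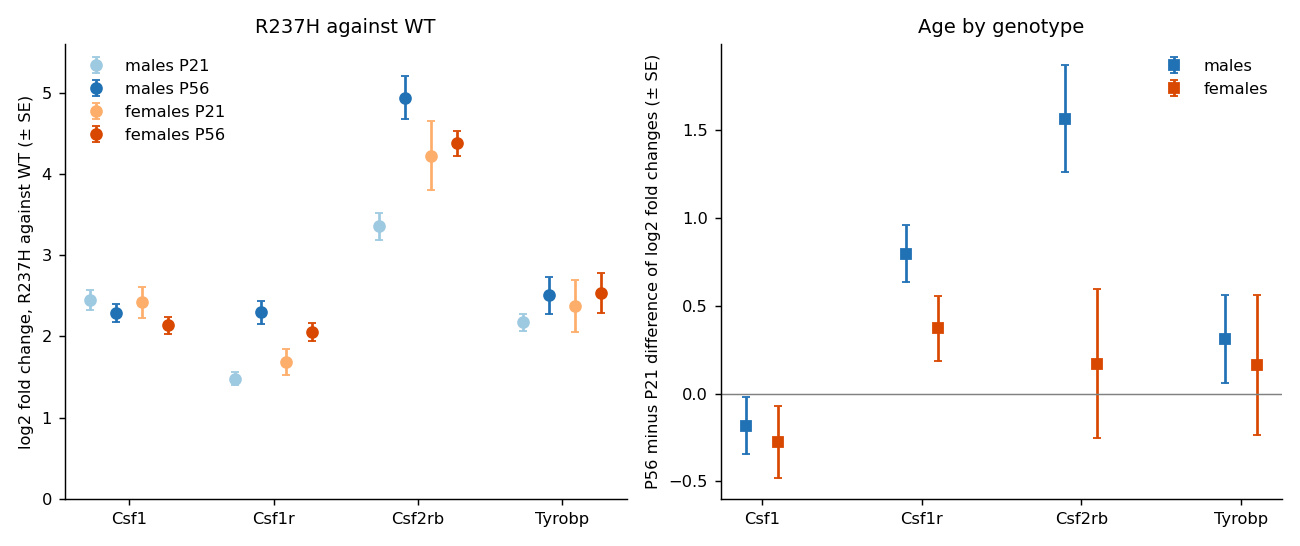
Left, log2 fold change of R237H against WT with its SE for each gene in 4 comparisons; right, the P56 minus P21 difference of these log2 fold changes with its SE in males and females. Csf2rb lies highest in every comparison, and in males the differences of Csf1r (0.80) and Csf2rb (1.57) are well above 0.

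At P21 there was more Csf1 per Csf1r in R237H rats than in WT rats. The ratio of Csf1 TPM to Csf1r TPM was 0.48 ± 0.07 in R237H and 0.23 ± 0.01 in WT males at P21 (SD, n = 4 each). In females at P21 it was 0.41 ± 0.06 (SD, n = 5) in R237H and 0.24 ± 0.01 (SD, n = 3) in WT. The ranges of R237H and WT rats were apart in both sexes. At P56 the ratio was 0.28 ± 0.03 in R237H and 0.28 ± 0.05 in WT males, and 0.33 ± 0.03 in R237H and 0.29 ± 0.02 in WT females (SD, n = 4 each), and the ranges overlapped. These ratios are a description and were not tested.

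**Figure D3:**
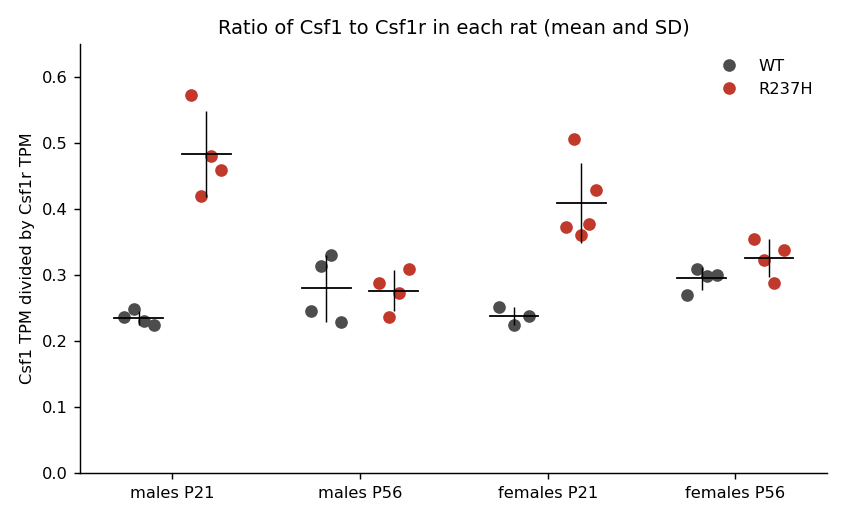
Csf1 TPM divided by Csf1r TPM in each rat; points are rats (WT grey, R237H red), horizontal lines are means and vertical lines the SD. R237H rats lie between 0.36 and 0.57 at P21, above all WT rats of that age (0.22 to 0.25), and overlap with WT rats at P56.

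The mean ratio of Tyrobp TPM to Csf1r TPM was 0.49 to 0.53 in the R237H groups and 0.31 to 0.41 in the WT groups, but the ranges of the genotypes overlapped in all comparisons except males at P21. The mean ratio of Csf2rb TPM to Csf1r TPM was 0.054 to 0.091 in the R237H groups and 0.013 to 0.018 in the WT groups, and the ranges of the genotypes were apart in each comparison. Neither ratio was tested.

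The 4 genes were set beside lists of related genes. Symbols were available for 13.8% of the identifiers, from tables sorted by change, so the genes that could be matched are themselves selected for change and list counts are descriptions. Their changes are given as log2 fold changes of R237H against WT, and increased or decreased again means FDR < 0.01. Of 12 ligands and receptors of the CSF and IL-3 families, 4 were matched and all 4 were increased in every comparison, among them the 3 members Csf1, Csf1r and Csf2rb. The fourth was Csf3r, the receptor for the granulocyte growth factor G-CSF, which rose by 2.52 in males and 2.28 in females at P56 and by 2.14 and 2.64 at P21. The other ligands and receptors, such as Il34, Csf2 and Csf2ra, were not analysed here.

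Microglia markers were increased with the members. Of 13 markers, 12 were increased in each sex at P56. At P21 the count was 13 in males and 12 in females. None of the 13 was decreased in any comparison. Their median log2 fold change was 2.41 in males and 2.24 in females at P56 and 1.65 and 2.08 at P21, against values between -0.03 and -0.01 over all genes tested. Csf1r was above 6 of the 13 markers in each comparison, and Tyrobp was above 7 at P56 in both sexes and, at P21, above 11 in males and 9 in females. Csf2rb was above all 13 markers in each comparison. Csf1 was above 6 markers at P56 in both sexes, and above 12 in males and 10 in females at P21. The markers themselves did not move evenly. C1qa, which encodes a chain of complement C1q, rose by 3.41 in males and 3.29 in females at P56 and by 2.01 and 2.48 at P21. P2ry12, a purinergic receptor of resting microglia, had smaller increases of 1.23 and 0.84 at P56 and of 1.04 and 1.38 at P21. Tmem119, another microglial surface marker, passed only in males at P21 (0.67, FDR = 0.00147), and at P56 its log2 fold changes were 0.50 (FDR = 0.157) and 0.19 (FDR = 0.464). The summed TPM of the 13 markers ranged from 1812 to 3065 in R237H rats and from 202 to 357 in WT rats at P56, and from 701 to 1254 and from 263 to 323 at P21.

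Markers of border or monocyte-derived macrophages rose as well. Of 6 listed, 5 were matched; 4 of them were increased in each sex at P56 and all 5 in each sex at P21. Plac8, which monocytes express, rose by 6.14 in males and 4.89 in females at P56 and by 4.31 and 5.32 at P21. Mrc1, the mannose receptor of border macrophages, had values of 3.58 and 3.28 at P56 and of 1.66 and 1.19 at P21. Summed over the 5 markers, R237H rats had 104 to 221 TPM and WT rats 2.45 to 10.3 TPM at P56, and 35.7 to 85.4 and 5.44 to 10.9 TPM at P21. Much of the sum in R237H rats at P56 was Plac8, with a mean of 120.5 TPM in males and 100.3 TPM in females. The part of these macrophages in the increases of Csf1r, Csf2rb and Tyrobp was not tested. Of 6 neutrophil markers 0 were matched, and they were not analysed here. Of 7 astrocyte markers 5 were matched, and Gfap was the only one of them increased at P56 in either sex, while Gja1, which encodes connexin 43, was decreased by 1.16 in males and 1.23 in females. At P21 in males, 3 of the 5 were increased, Gfap, Aqp4 (0.43) and Sox9 (0.73), and Slc1a2 was decreased (-0.42). In females at P21, Gfap alone was increased and 0 were decreased.

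Most of the matched kinases and adaptors that work with TYROBP were increased, whereas its 2 matched receptors, Trem2 and Clec5a, passed in males at P21 only. Of 33 listed genes 21 were matched, Tyrobp included, and 19 of 21 tested were increased in P56 males and 18 of 20 in P56 females. At P21 the counts were 20 of 20 in males and 16 of 20 in females. None of the 21 was decreased in any of the 4 comparisons. The median log2 fold change was 2.08 in males and 1.98 in females at P56 and 1.62 and 1.74 at P21. Downstream, the kinase gene Syk rose by 1.52 in males at P56 and 1.55 in females, and by 0.90 and 0.89 at P21, all at FDR < 0.01. Vav1, a guanine nucleotide exchange factor, was increased by 3.30 and 3.14 at P56 and by 2.14 and 2.25 at P21. Lyn, a Src family kinase, and Ptpn6, the phosphatase SHP-1, were increased by 2.07 and 2.70 in males at P56. Prkcd, a protein kinase C, was increased by 2.08 in the same rats. Fcer1g, an adaptor that couples Fc receptors in the way TYROBP couples TREM2, was increased in all 4 comparisons, by 1.67 to 2.15. Hcst, which encodes the adaptor DAP10, passed the filter on low counts only in males at P56, through the R237H rats, where its mean was 3.91 TPM against 0.14 TPM in WT rats. Its place in the count of 19 of 21 therefore supports nothing, and without it the count is 18 of 20. Clec5a, a lectin receptor of myeloid cells, had log2 fold changes of 0.99 (FDR = 0.0974) and 0.90 (FDR = 0.119) in P56 males and females. At P21 it was increased in males (1.77, FDR = 9.38e-04), and in females its value was 1.75 (FDR = 0.0209). Its mean was below 1 TPM in every group, and it was named after its values were seen.

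Trem2, the best known partner receptor of TYROBP, was increased only in males at P21 by this test, although its mean was higher in R237H rats of all 4 comparisons. In males at P56, Trem2 was at 8.76, 7.94, 28.6 and 6.80 TPM in R237H rats and at 6.64, 6.26, 2.66 and 10.3 TPM in WT rats. In females at P56, it was at 10.1, 11.1, 26.4 and 13.03 TPM in R237H rats and at 6.40, 4.41, 10.6 and 6.08 TPM in WT rats. The genotypes overlapped at P56, and the highest rat of each sex, s69-B and s69-C, was also the highest for Tyrobp. In males at P21, R237H rats had 13.6, 12.5, 10.3 and 11.9 TPM of Trem2 and WT rats had 6.19, 4.88, 6.01 and 5.69 TPM, with no overlap. In females at P21, R237H rats had 14.7, 15.5, 13.7, 10.01 and 5.82 TPM and WT rats had 4.10, 7.09 and 5.03 TPM, R1797D lying within the WT range. The log2 fold change was 0.69 ± 0.51 (SE, FDR = 0.307) in males and 0.65 ± 0.35 (SE, FDR = 0.154) in females at P56. At P21 it was 0.95 ± 0.12 (SE, FDR = 8.34e-05) in males and 1.10 ± 0.32 (SE, FDR = 0.0456) in females. Whether the change of Trem2 differs between ages or from that of Tyrobp was not tested.

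JAK2-STAT5 signaling is the route used by the common beta chain. Of its 14 listed genes 7 were matched, and all 7 were increased in each sex at P56. At P21, 7 of 7 were increased in males and 3 of 7 in females. The median log2 fold change was 1.70 and 1.68 in males and females at P56 and 0.79 and 0.85 at P21. Jak2, the kinase bound to the beta chain, was increased by 0.71 and 0.63 at P56 and by 0.41 in males at P21, and had a value of 0.43 (FDR = 0.0192) in females at P21. Stat5a, the transcription factor it activates, was increased by 1.65 and 1.74 at P56. The survival gene Mcl1 and the proto-oncogene Myc were increased in all 4 comparisons, Myc by 1.54 to 2.28. The adaptor gene Shc1 was increased by 1.81 in males at P56. These genes also act downstream of many other receptors and are expressed outside the myeloid lineage. They were matched through tables sorted by change, so their counts do not bear on the use of this route, which was not tested.

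Of 10 myeloid transcription factors 8 were matched, and 7 of 8 were increased in each sex at P56. At P21, 7 of 8 were increased in males and 5 of 8 in females. Irf8, required for microglia development, had the largest change in males at P56 (3.26, FDR = 2.95e-06), and Ikzf1 and Sall1 were increased in the same rats by 2.27 and 1.17. Of 15 genes of activated microglia 13 were matched, and 12 were increased and 1 (Lpl) decreased in each sex at P56. At P21, 10 were increased and Lpl decreased in males, and 11 were increased and 0 decreased in females. Itgax and Clec7a were near the floor in WT rats, with means of 0.07 and 0.14 TPM in P56 males, against 2.54 and 11.98 TPM in R237H rats. They may have passed the filter on low counts only through the R237H rats, so their place in these counts supports nothing. Spp1 (7.30), Lgals3 (5.94), Gpnmb (4.40) and Axl (1.51) had the smallest FDR of this list in males at P56.

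**Figure D4:**
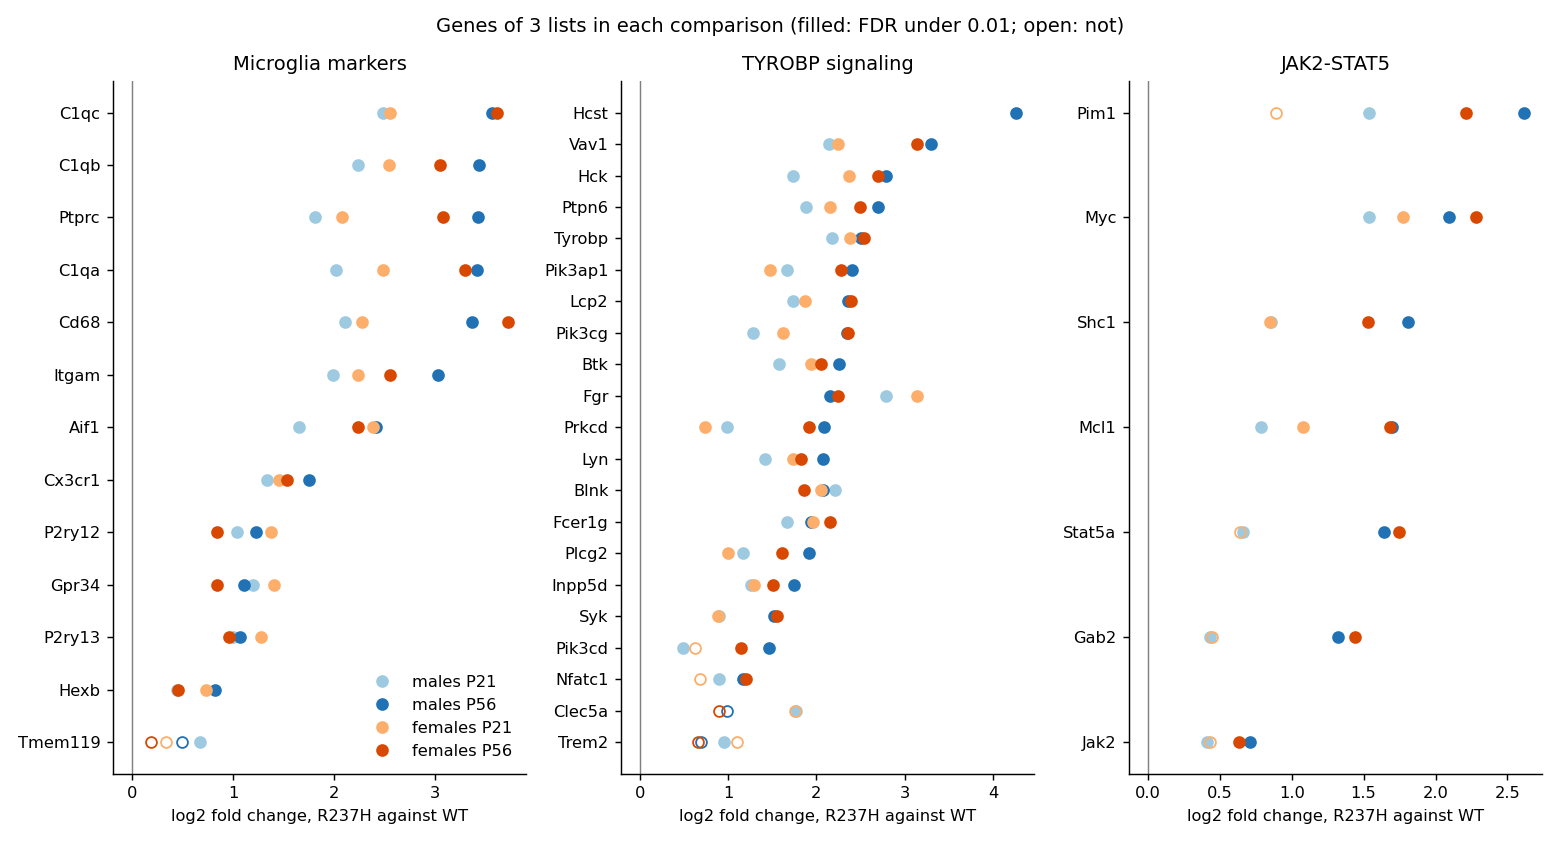
Log2 fold change of R237H against WT for the matched genes of the microglia marker, TYROBP signaling and JAK2-STAT5 lists in 4 comparisons; filled points passed FDR < 0.01 and open points did not. Most points lie to the right of 0, with Tmem119 and Trem2 near the lower end of their lists.

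Covariation between rats was measured within each genotype, on log2 CPM after the mean of each sex and age was subtracted. Over the 10 pairs of the 4 genes and Gfap in both genotypes, 20 correlations were computed, with permutation within groups and Benjamini-Hochberg adjusted values over the 20. In the 17 R237H rats, Csf1r and Csf2rb were correlated (r = 0.89, permutation p = 2.30e-04, adjusted 0.0046; rho = 0.87, permutation p = 1.50e-04, adjusted 0.003). Csf1 was correlated with Csf1r (r = 0.77, permutation p = 0.00217, adjusted 0.0217; rho = 0.72, permutation p = 0.00674, adjusted 0.025). Csf1 was also correlated with Csf2rb (r = 0.76, permutation p = 0.00392, adjusted 0.0261; rho = 0.80, permutation p = 0.00227, adjusted 0.0173). Tyrobp had r of 0.49 with Csf1, 0.56 with Csf1r and 0.69 with Csf2rb, with adjusted permutation p of 0.343, 0.259 and 0.0584. In the 15 WT rats, the 6 pairs of members had r between 0.38 and 0.53 and did not pass (adjusted permutation p of 0.343 to 0.375), and the only pair that passed was Tyrobp and Gfap (r = 0.76, permutation p = 0.00857, adjusted 0.0428; rho = 0.86, permutation p = 0.0026, adjusted 0.0173). Whether the genotypes differ in these correlations was not tested.

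These correlations rested in part on a few rats. Without the 2 rats farthest from the median of the first gene, r was 0.80 for Csf1r and Csf2rb, 0.57 for Csf1 and Csf1r, and 0.47 for Csf1 and Csf2rb in R237H rats, with adjusted permutation p of 0.0616, 0.176 and 0.254. For Tyrobp and Gfap in WT rats it was 0.55 (adjusted permutation p = 0.394). Leaving out 1 rat at a time kept Csf1r and Csf2rb past the threshold (r of 0.83 to 0.92). Without R1789A, r of Csf1 with Csf1r and with Csf2rb was 0.59 and 0.63, and neither passed. Neither passed without R1789B (0.74 and 0.65) or without R1797D (0.76 and 0.79). All 3 are R237H females at P21. Without R1797D, r was close to that in all 17 R237H rats (0.77 and 0.76), and only the adjusted permutation p crossed the threshold. The correlation of Tyrobp and Gfap in WT rats passed in 5 of 15 fits without 1 rat. In the 9 R237H rats at P21 alone, r was 0.93 for Csf1r and Csf2rb, 0.86 for Csf1 and Csf1r, and 0.83 for Csf1 and Csf2rb (exact permutation, adjusted p of 0.00694, 0.0347 and 0.0394). In the 8 R237H rats at P56 alone, r was 0.76, 0.44 and 0.41 and did not pass (exact permutation, adjusted p of 0.267, 0.537 and 0.637).

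Gfap had r between 0.06 and 0.30 with the members in R237H rats over both ages, but its sign differed by age. At P21, r was 0.59 with Csf1, 0.60 with Csf1r, 0.76 with Csf2rb and 0.87 with Tyrobp (n = 9, exact permutation, adjusted p of 0.335, 0.335, 0.121 and 0.0451), so that Tyrobp alone passed. At P56, r was -0.61, -0.69, -0.91 and -0.76 in the same order (n = 8, exact permutation, adjusted p of 0.377, 0.267, 0.0347 and 0.174), and Csf2rb alone passed. In R237H males at P56, the rats s70-B, s65-A, s66-A and s69-B had 6989, 5762, 5183 and 4264 CPM of Gfap and 24.99, 31.1, 43.7 and 44.8 CPM of Csf2rb, in opposite order. In R237H females at P56, the rats s70-C, s65-C, s69-C and s64-A had 6249, 6219, 5243 and 4776 CPM of Gfap and 31.3, 32.4, 33.6 and 40.2 CPM of Csf2rb, again in opposite order. In TPM the order was opposite in males but not in females, where s64-A was lowest in Gfap (2845 TPM) and only the third highest in Csf2rb. Without s70-B, a shallow library with choroid plexus markers, r of Gfap and Csf2rb at P56 was -0.83 (n = 7, exact permutation p = 0.0278, adjusted 0.208). The difference between the ages was not tested.

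**Figure D5:**
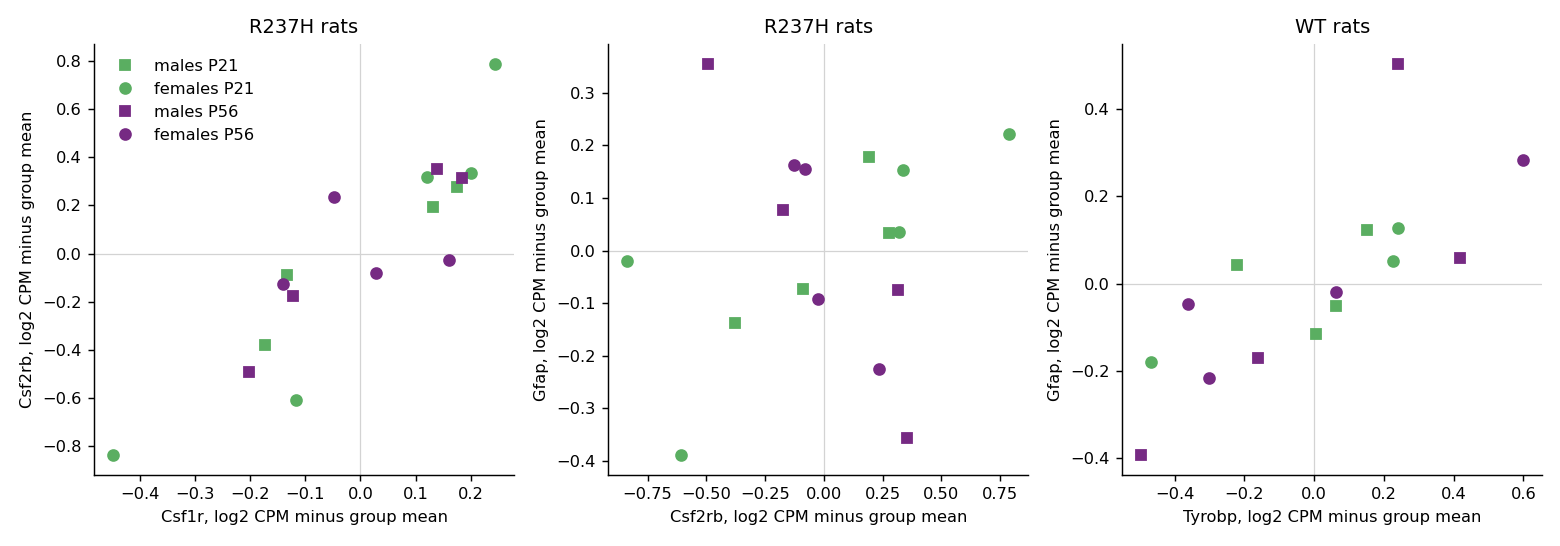
Deviations of single rats from the mean of their group on the log2 CPM scale, for Csf2rb against Csf1r and Gfap against Csf2rb in R237H rats and for Gfap against Tyrobp in WT rats; squares are males, circles females, green P21 and purple P56. Csf1r and Csf2rb rise together (r = 0.89), while Gfap against Csf2rb has r = 0.76 at P21 and r = -0.91 at P56.

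Genes were then ranked by how closely their deviations from the 8 group means followed each member over all 32 rats. Of 14733 other genes 3166 had a symbol, and the 5 with the highest Pearson r are given here as a description. For Csf1 they were Ctsz (r = 0.79), Myo1f (0.75), Myd88 (0.75), Lrrk1 (0.74) and Prkcd (0.74). For Csf1r they were Laptm5 (0.89), Tifab (0.87), Slco2b1 (0.87), Myo1f (0.87) and Pld4 (0.85). For Csf2rb they were Stk10 (0.80), Csf1r (0.79), Cyth4 (0.78), Laptm5 (0.78) and Man2b1 (0.77). Csf1r was thus the second nearest gene of Csf2rb, and Myo1f, an unconventional myosin of leukocytes, was near both Csf1 and Csf1r. For Tyrobp they were Cyba (0.89), Arhgap22 (0.86), Crip2 (0.86), Amotl2 (0.86) and Sipa1 (0.85), none of which was among the nearest 5 of another member.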

How the data were processed

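PolyA-selected, stranded RNA-seq libraries of the hippocampus were made from 32 rats. Per the labels, the authors used bcl2fastq 2.20.0.422, STAR and RSEM. They deposited expected counts per gene, not scaled between rats, in which 5.68% of the values are not whole. The authors also deposited TPM values, which RSEM scales by transcript length and by library. The genome build and annotation are not given in the sources used here. Groups were taken from the genotype, sex and age labels. Each rat counts as 1 replicate, and p-values measure the spread between these rats.

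After rounding, the counts that passed the default filter of edgeR 4.0.16 (R 4.3.3) were scaled by TMM and fitted within 1 sex and age. R237H was compared with WT by the quasi-likelihood F-test, with the Benjamini-Hochberg FDR over all genes tested and a threshold of 0.01. Age by genotype and sex by genotype terms were fitted in the 16 rats of a sex or an age. Each SE follows from the fold change and its F. Correlations used log2 CPM (prior count 2) and 100000 two-sided permutations within groups, or all permutations for 1 age, with a threshold of 0.05. The quasi-likelihood fits of males at P56 and of age by genotype in males were tested on simulated data, as was the correlation procedure. The other fits were not. Python 3.11.15, numpy 2.4.6, pandas 2.3.3 and matplotlib 3.10.9 were used for the rest.

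As alternatives, the comparisons were run by the likelihood-ratio test of edgeR, by DESeq2 1.42.0, with RLE factors, without the filter, with all 32 rats in 1 model, with limma 3.58.1 on log2(TPM + 0.1), with the title number as a block, without libraries under 30000000 counts and without each rat. Leaving out 6 libraries over 100 TPM of summed choroid plexus markers, P56 alone without shallow libraries, and the block in models of differences were chosen after seeing the data. Gene symbols came from the name column of the study's tables and cover 3289 of 23822 identifiers. The fold changes and p-values in those tables were not used. The 4 genes and all lists were chosen with earlier results of these data known. Beside the members and Gfap, the genes named were their direct partners, the 4 of a list with the smallest FDR in males at P56, and the 5 of nearest pattern. Not every gene that these rules select was named. P2ry12, Tmem119, Jak2, Lpl, Itgax, Clec7a, Clec5a and Slc1a2 were outside these rules and were named after their values were seen. C1qa and Spi1 were within them, but were also picked after their values were seen.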

Additional observations from a re-analysis of the deposited data

Results flagged for a closer look

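In WT males at P56, the level of Csf1r in s69-A was 29.2 TPM, far from the other 3 rats of its group (49.6 to 51.7 TPM). The gap was 0.905 of the range of the group, above the critical value of 0.829 for 4 rats. Of 28 groups of 4 or 5 rats examined over the 4 genes, this was the only one with such a rat. Chance gives such a rat in about 1 of 20 groups, so 1 among 28 is near what chance gives. In CPM, from the counts, the gap of s69-A was 0.289 of the range, so it does not stand apart there. Without it, the log2 fold change of Csf1r in males at P56 was 2.22 and remained past the threshold.

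The response to the mutation differed between P21 and P56 in males for Csf1r, by 0.80 on the log2 scale, and for Csf2rb, by 1.57 (FDR = 0.00293 and 0.00218), in the test of the age by genotype term. Any batch that goes with age, which no label names, cannot be told apart from it.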

How the results depend on the processing

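All 16 log2 fold changes of the 4 genes kept their direction and FDR < 0.01 in 128 fits without 1 rat and 132 fits with another setting, and so did the age by genotype differences of Csf1r and Csf2rb in males (edgeR FDR up to 0.00949 without 1 rat). R237H and WT rats with the same title number deviated together in some pairs and not in others (r of -0.02 to 0.22 in P56 males, 0.07 and 0.47 in P56 females, 0.02, 0.05 and 0.39 in P21 females), and nothing states that the number marks litters. With it as a replicate block the FDR of the fold changes was at most 0.00652. All 8 males at P21 carry 1 number, so a block removes nothing there. In the models of differences, where the block was added after seeing the data, Csf1r (0.80, FDR = 0.00441) and Csf2rb (1.55, FDR = 0.00192) again passed in males by edgeR, and the sex by genotype difference of Tyrobp at P21 turned to 0.034. The sign of some differences that did not pass turned. With limma on log2(TPM + 0.1), which moves the median of all genes, the age by genotype difference of Csf1 was 0.19 in males and 0.12 in females, and the sex by genotype difference of Tyrobp at P56 was 0.12. Without the 6 libraries with choroid plexus markers, an alternative chosen after seeing the data, that of Tyrobp was 0.058 at P56 and 0.19 at P21. Without 1 rat, the sex by genotype difference ranged from -0.31 to 0.095 for Tyrobp at P56 and from -0.10 to 0.17 for Csf1 at P21. DESeq2 and a threshold of 0.05 each called 5 rather than 3 of the JAK2-STAT5 genes in females at P21.

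The correlations were less stable. In R237H rats, r for Csf1 with Csf1r, Csf1 with Csf2rb and Csf1r with Csf2rb did not pass without the 2 rats farthest from the median (0.57, 0.47 and 0.80), at P56 alone (0.44, 0.41 and 0.76), at P56 without shallow libraries (0.46, 0.49 and 0.59) and without the choroid plexus libraries (0.79, 0.70 and 0.87). For Tyrobp with Gfap in WT rats, these settings gave 0.55, 0.78, 0.78 and 0.80, and P21 alone gave 0.71, none past the threshold. In R237H rats at P56 alone, Gfap turned negative with Csf1, Csf1r, Csf2rb and Tyrobp (-0.61, -0.69, -0.91 and -0.76), also without shallow libraries (-0.72, -0.49, -0.83 and -0.76). Without the 2 farthest rats it was -0.018 with Csf2rb and -0.60 with Tyrobp in R237H rats and -0.11 with Csf2rb in WT rats, where Csf1r with Csf2rb was -0.10. At P21 alone, Csf1 in WT rats had -0.44 with Csf2rb, -0.42 with Tyrobp and -0.11 with Gfap, and Tyrobp with Gfap passed in R237H rats (0.87). By Spearman's rho, Tyrobp in R237H rats passed with Csf1 (0.64), Csf1r (0.65) and Csf2rb (0.72) and was -0.0098 with Gfap. On log2(TPM + 0.1), Csf2rb with Tyrobp in R237H rats (0.67) and Csf1r with Csf2rb in WT rats (0.64) passed. Without 1 rat, r in R237H rats ranged from 0.59 to 0.82 for Csf1 with Csf1r, 0.63 to 0.82 for Csf1 with Csf2rb, 0.47 to 0.70 for Csf1r with Tyrobp, 0.56 to 0.80 for Csf2rb with Tyrobp, -0.051 to 0.27 for Csf1r with Gfap, -0.12 to 0.37 for Csf2rb with Gfap and -0.36 to 0.38 for Tyrobp with Gfap. In WT rats it ranged from 0.68 to 0.88 for Tyrobp with Gfap, which passed in 5 of 15 fits. The causes were not tested.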
